A study of Homo sapiens with 6 samples.

Results

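The vacuolar ATPase, the membrane proteins of the lysosome and the machinery that senses amino acids on its surface were followed in HL-60 cells, a suspension line from human acute myeloid leukaemia. The members were the protein-coding genes with symbols starting ATP6V or ATP6AP, with 22 named genes of the lysosomal membrane, the Ragulator complex, the Rag GTPases, the FLCN and FNIP proteins and mTORC1. These were 49 of the 58302 genes counted, and 27 of the 49 carried an ATP6 symbol. Messenger RNA was sequenced from 3 libraries that carried an OSGEP-directed short hairpin RNA, genotype OSGEP knockdown, and 3 that carried a control hairpin, genotype WT. All 6 came from HL-60. OSGEP is the catalytic subunit of the complex that makes the t6A modification of tRNA, and the study asked about its role in this leukaemia. The labels do not give the number of hairpins, the time after their delivery or whether libraries were separate cultures, so p-values reflect library-to-library spread alone, which may be technical.

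The vacuolar ATPase is a rotary proton pump that acidifies lysosomes, endosomes and granules. Its V1 sector sits in the cytosol and splits ATP, and its V0 sector lies in the membrane and carries protons across. The lysosome surface is also where mTORC1, the kinase complex that couples nutrients to growth, is switched on: the Ragulator scaffold holds Rag GTPases there, the Rags recruit mTORC1, and RHEB activates it. FLCN with FNIP1 or FNIP2 acts on RRAGC and RRAGD. The factors TFEB, TFE3, MITF and TFEC bind the CLEAR element of lysosomal gene promoters, and TFEB, TFE3 and MITF are controlled from the lysosome surface.

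Total counts ran from 8326982 to 10157091 per library. OSGEP itself was at 21.2, 23.1 and 20.9 CPM (TMM-normalised counts scaled to a common library size) in the knockdown and at 49.0, 54.4 and 76.9 CPM in the control. All 9 HL-60 and myeloid markers checked were detected. All 9 were tested and 5 fell, among them PRTN3 and MPO, while 5.56% of all genes tested fell. CTSG (log2 fold change -0.72), CD33 (-0.03), SPI1 (-0.14) and CEBPE (0.94) were not called. Summed over the 9 markers, the level was 1417 to 1586 CPM with the OSGEP hairpin and 3357 to 3578 CPM with the control hairpin. Most of this difference came from PRTN3, at knockdown and control means of 450 and 1244 CPM, and MPO, at 286 and 954 CPM. Of 9 osteoclast and macrophage markers, 3 passed the filter on low counts and were tested. The acid phosphatase gene ACP5 and the protease gene CTSK, 2 of these 3, rose, while 5.19% of all genes tested rose. The CTSK call was lost with limma-voom (adjusted p = 0.0804), with the replicate block (edgeR adjusted p = 0.0747) and without control library 3 or knockdown library 3. The sum of all 9 was 208 to 275 CPM with the OSGEP hairpin and 8.76 to 18.5 CPM with the control hairpin, mostly from ACP5. MMP9 was at 7.20, 3.88 and 2.96 CPM against 0, 1.84 and 0.12 CPM and was not called. DCSTAMP, OCSTAMP, CD163, MRC1 and MSR1 stayed at or below 2.85 CPM in every library. The near-0 count of CD68 says nothing of its level, since 81.7% of its exonic bases are shared with another gene on the same strand. Epithelial and mesenchymal markers summed to 36.3 to 60.4 CPM against 26.7 to 32.4 CPM. Of these 8 genes, 6 were tested and 1 rose, beside 5.19% of all genes tested. It was CDH1, at a log2 fold change of 1.59 (edgeR adjusted p = 0.0219). The CDH1 call was kept in 1 of the 6 fits that left out 1 library and lost with the replicate block (edgeR adjusted p = 0.0628). KRT8, of the same list, was at 27.4, 10.4 and 19.5 CPM against 8.24, 6.85 and 9.85 CPM, without overlap. It was not called by edgeR (adjusted p = 0.0525) or limma-voom (adjusted p = 0.116) and was called by DESeq2 (adjusted p = 0.0283). The part of these shifts in the results below was not tested, and in bulk RNA a different share of cells of a type and a different amount of RNA per cell cannot be told apart. Lymphoid markers summed to at most 10.3 CPM and erythroid markers to at most 2.35 CPM in any library.

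Of the 49 members, 42 passed the filter on low counts and were tested. By edgeR's quasi-likelihood test (adjusted p under 0.05), 11 of the 42 rose in the knockdown and 0 fell, while 5.19% of all genes tested rose and 5.56% fell. The members were chosen with earlier results of these data known, so these shares are a description and not a test of the set. No member was lower at an unadjusted edgeR p under 0.05, and 0 were lower with DESeq2 or limma-voom. DESeq2 called 13 members higher, with 6.81% of all genes higher and 6.56% lower, and limma-voom called 11, with 4.9% higher and 6.18% lower. The members that rose were ATP6V1A, ATP6V1B2, ATP6V1C1, ATP6V1F and ATP6V1H of the V1 sector, ATP6V0B of the V0 sector, the accessory protein gene ATP6AP1, the membrane genes CD63 and OSTM1, the Ragulator gene LAMTOR5, and FNIP2. Their summed counts per group ran from 1042 to 17003. The median log2 fold change of the members tested was 0.44, against 0.01 over all genes tested. In 19 of the 42, every knockdown library lay above every control library, as in 13.3% of all genes, and in 0 did every one lie below, as in 15.6% of all genes. Among the 27 members at a mean of at least 20 CPM, 11 rose, and 7.77% of protein-coding genes at that level did. The number that rose was 7 without control library 1 and 8 to 13 without any other library. In each of the 6 fits that left out 1 library, 7 of the 11 kept their call: ATP6AP1, ATP6V1B2, ATP6V1C1, ATP6V1F, FNIP2, LAMTOR5 and OSTM1.

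**Figure D1:**
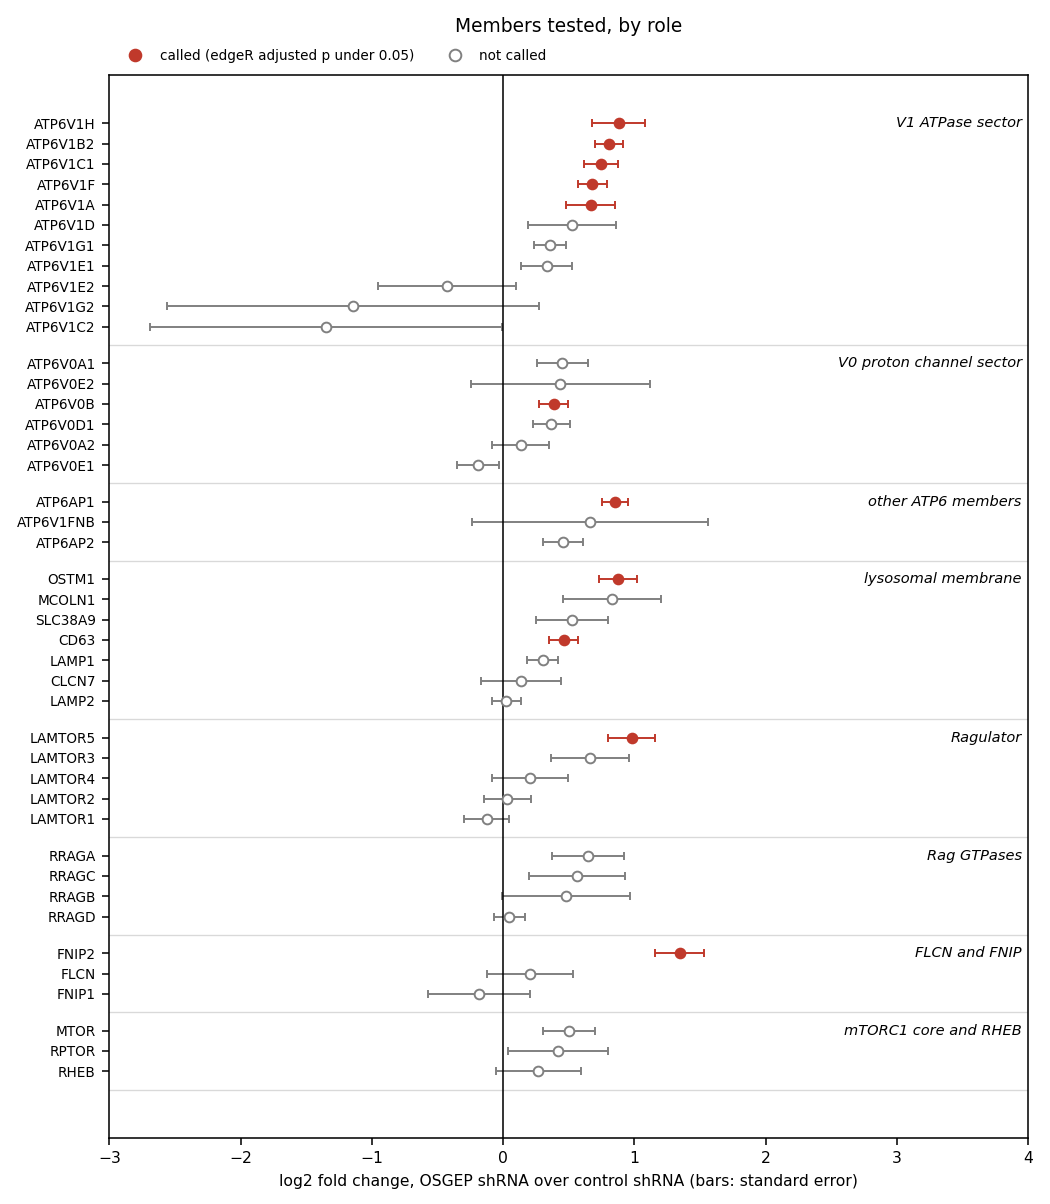
Log2 fold change of OSGEP shRNA over control shRNA for the 42 members tested, by role, with bars of 1 standard error. Filled red points are the 11 called by edgeR, all of them above 0, and open grey points are the 31 not called.

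The V1 sector had the most called members and also the most tested members. Of its 13 genes, 11 were tested, 5 rose and 0 fell, with a median log2 fold change of 0.52. Over all genes tested, 5.19% rose and 5.56% fell, and 7.77% of protein-coding genes at a mean of at least 20 CPM rose. ATP6V1B2, the regulatory B subunit beside the catalytic site, stood at 558, 478 and 491 CPM with the OSGEP hairpin and at 287, 276 and 309 CPM with the control hairpin. The lowest knockdown library was well above the highest control library, and the means were 509 ± 43.2 and 291 ± 16.8 CPM (SD, n = 3 each). Its log2 fold change was 0.81 (SE 0.11), 1.75-fold, with an edgeR adjusted p of 7.75e-05. ATP6V1F, a subunit of the central rotor shaft, was at 334, 281 and 323 CPM against 196, 184 and 205 CPM. Its groups did not overlap either, and the log2 fold change was 0.68 (SE 0.11, edgeR adjusted p = 0.000773). Of the exonic bases of ATP6V1F, 23.7% lie within exons on the opposite strand, and the strand setting of the counting is not given. ATP6V1C1, which bridges the V1 and V0 sectors, was at 174, 159 and 162 CPM against 87.4, 109.7 and 97.7 CPM. The log2 fold change of ATP6V1C1 was 0.75 (SE 0.13, edgeR adjusted p = 0.00132).

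ATP6V1A, the catalytic A subunit, and ATP6V1H, the regulatory H subunit, rose with wider spread. ATP6V1A was at 149, 92.3 and 102.9 CPM with the OSGEP hairpin and at 78.6, 58.9 and 79.7 CPM with the control hairpin, a log2 fold change of 0.67 (SE 0.19, edgeR adjusted p = 0.0301). Knockdown library 1 was the highest, and without it the value was 0.43. The call of ATP6V1A was kept only without knockdown library 2, and the other 5 such fits gave 0.43 to 0.76. ATP6V1H was at 78.8, 51.4 and 86.2 CPM against 34.2, 43.0 and 40.2 CPM, a log2 fold change of 0.88 (SE 0.20, edgeR adjusted p = 0.00931). Its call was lost without control library 1 (0.79) or knockdown library 3 (0.75).

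The other V1 genes were not called. ATP6V1G1, a subunit of the peripheral stalk, was at 333, 271 and 355 CPM with the OSGEP hairpin and at 263, 236 and 248 CPM with the control hairpin. The groups did not overlap, but the log2 fold change of 0.36 (SE 0.12) did not pass edgeR's test (adjusted p = 0.0719), while it did with DESeq2 (adjusted p = 0.0233). Its stalk partner ATP6V1E1 was at 105, 68.7 and 123 CPM against 65.2, 87.0 and 83.4 CPM. Knockdown library 2 lay inside the control range there, and without it the value went from 0.33 to 0.55 and was called. ATP6V1D, of the rotor shaft, had a log2 fold change of 0.52 at 7.75 to 21.8 CPM. The tissue-restricted forms were low: ATP6V1E2 lay between 3.91 and 13.3 CPM and ATP6V1C2 and ATP6V1G2 between 0 and 3.82 CPM, with log2 fold changes of -0.43, -1.35 and -1.14 and standard errors of 0.52 to 1.42. ATP6V1B1, the B subunit known from kidney and inner ear, had 1 count in the 6 libraries together, but 62.4% of its exonic bases are shared with VAX2 on the same strand, so its level is not known from this. ATP6V1G3 had no count.

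Per length of exon, the V1 subunits differed widely in level. In the control, ATP6V1F and ATP6V1G1 stood at 247 and 191 RPKM (CPM per kilobase of exon), ATP6V1B2 at 37.2, ATP6V1E1 at 24.5, ATP6V1C1 at 16.8, ATP6V1A at 14.1, ATP6V1H at 7.69 and ATP6V1D at 2.86 RPKM. The order of these 8 was the same in the knockdown, from 396 RPKM for ATP6V1F to 4.12 RPKM for ATP6V1D. These lengths join all annotated exons, including those of transcripts with retained introns, so levels of long gene models can be understated.

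Of the 9 V0 genes, 6 were tested, 1 rose and 0 fell, beside 5.19% and 5.56% of all genes tested. The median log2 fold change of the 6 was 0.38. ATP6V0B, a proteolipid of the rotor ring, was at 359, 298 and 321 CPM with the OSGEP hairpin and at 254, 255 and 241 CPM with the control hairpin. All knockdown libraries lay above the control, and the log2 fold change was 0.38 (SE 0.11, edgeR adjusted p = 0.0341). This call was kept only without knockdown library 2, with 0.31 to 0.41 in the other 5 fits that left out 1 library. ATP6V0D1, which couples the rotor shaft to the ring, had a log2 fold change of 0.37 and ATP6V0A1, an a subunit of the proton path, 0.45, with groups that did not overlap in either and edgeR adjusted p-values of 0.109 and 0.17. ATP6V0A2 and ATP6V0E1 stood at 0.13 and -0.19 with overlapping groups, and ATP6V0E2 was between 1.96 and 10.3 CPM.

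Of the V0 genes not tested, ATP6V0C, the main proteolipid of the ring, was counted at 0 in 5 libraries and at 15 in knockdown library 3. In GENCODE release 29, 72.1% of its exonic bases lie within exons of other genes on the same strand, whose reads may not be told apart, so the counts say nothing of its level. ATP6V0A4, known from kidney, had no count. ATP6V0D2, the d subunit known from osteoclasts and macrophages, had 23, 11 and 0 counts in knockdown libraries 1, 2 and 3 and 0 in each control library. A count of 0 allows up to 3 if sampling of reads is the only source of spread. Libraries of a group differed by more than that over all genes, and ATP6V0D2 had 0 beside 23 and 11 in the knockdown. The counts thus do not show that it is absent from the control.

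**Figure D2:**
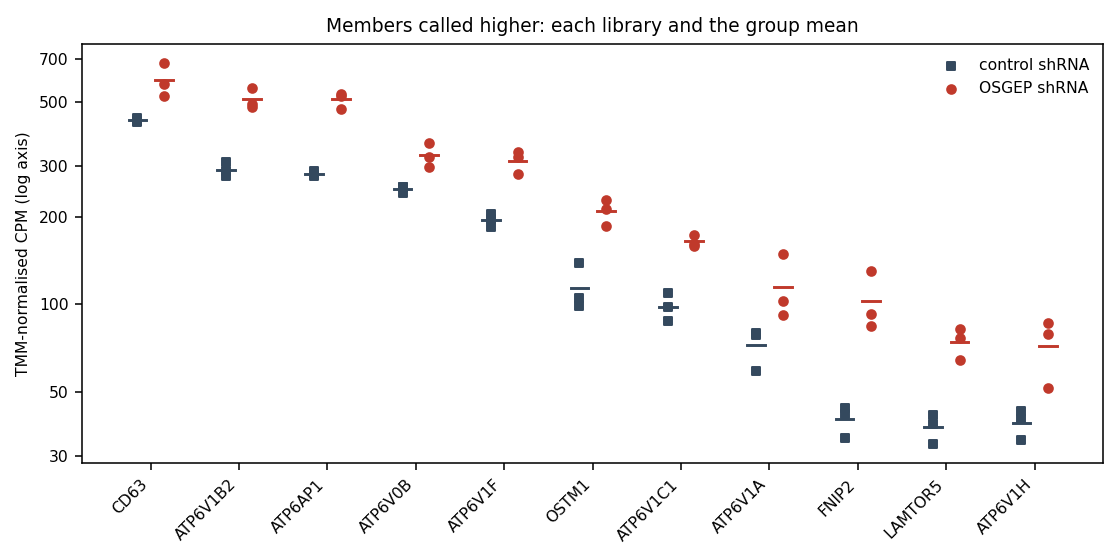
TMM-normalised CPM on a log axis for the 11 members called higher, in each library (red circles, OSGEP shRNA; dark squares, control shRNA) with the group mean as a line. In all 11 the knockdown libraries lie above the control libraries, most narrowly for ATP6V1A.

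ATP6AP1 encodes an accessory subunit of V0 needed for assembly of the pump. Its level was 523, 472 and 530 CPM with the OSGEP hairpin and 277, 289 and 280 CPM with the control hairpin. The control libraries were close to each other and all far below the knockdown, with means of 508 ± 31.6 and 282 ± 6.19 CPM (SD, n = 3 each). A log2 fold change of 0.85 (SE 0.10) had an edgeR adjusted p of 2.98e-05. ATP6AP2, the second accessory subunit and renin receptor, was at 125, 154 and 184 CPM against 119, 118 and 100 CPM. Its groups did not overlap, and its log2 fold change of 0.46 missed edgeR's threshold (adjusted p = 0.0667) and passed with DESeq2 (adjusted p = 0.0264). ATP6V1FNB, a gene named only as the neighbour of ATP6V1F, stayed below 5.2 CPM. ATP6AP1L had 26 counts in the knockdown and 13 in the control, and the read-through gene ATP6V1G2-DDX39B, whose exonic bases are all shared with other genes on its strand, was counted at 0.

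Summed over its 13 genes, the V1 sector was at 1768, 1419 and 1666 CPM with the OSGEP hairpin and at 1039, 1025 and 1081 CPM with the control hairpin, 1.54-fold higher. For the V0 sector, to which TCIRG1 was added as the a3 subunit outside the ATP6 names, the sums were 733, 672 and 717 CPM against 603, 619 and 602 CPM, 1.16-fold higher. Neither sum overlapped between groups, and each had a two-sided exact permutation p of 0.1, the smallest that 3 libraries against 3 can give. The ratio of V1 to V0 transcripts was 2.41, 2.11 and 2.32 in the knockdown and 1.72, 1.66 and 1.79 in the control, again without overlap (exact permutation p = 0.1). The V0 sums lack ATP6V0C, so the ratio is one of the counted subunits and not of the pump. TCIRG1 averaged 118 CPM with the OSGEP hairpin and 131 CPM with the control hairpin. Adding it thus lowered the fold of the V0 sum and raised that of the ratio.

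**Figure D3:**
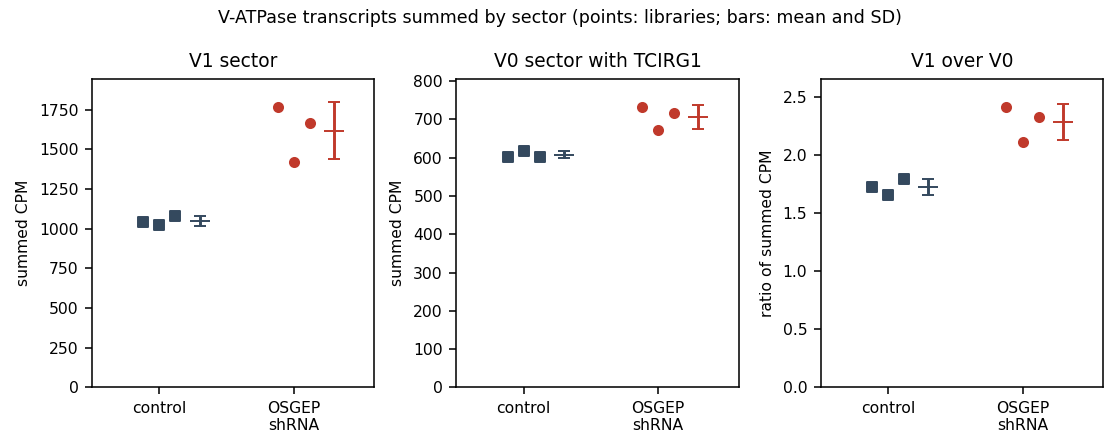
Summed CPM of V1 genes, of V0 genes with TCIRG1, and their ratio, with a point for each library and the mean and SD of each group of 3. The V1 sum averages 1618 CPM with the OSGEP hairpin and 1049 CPM with the control hairpin, the V0 sum 707 and 608 CPM.

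Several subunits come as paralogs, and their balance was compared as shares of counts per exonic length. Among the a subunits, which direct the pump to different membranes, TCIRG1 made up 76.9%, 79.3% and 79.8% in the knockdown and 85.4%, 84.3% and 80.9% in the control. ATP6V0A1 made up 12.1% ± 1.29 in the knockdown and 8.45% ± 0.409 in the control (SD, n = 3 each). The groups did not overlap for either gene, with an exact permutation p of 0.1 each. TCIRG1 itself was not called, at 118 ± 12.4 CPM with the OSGEP hairpin and 131 ± 11.3 CPM with the control hairpin (log2 fold change -0.16, edgeR adjusted p = 0.574). Without division by length, the differences in share were -7.33 points for TCIRG1 and 5.72 points for ATP6V0A1, in place of -4.85 and 3.67 points. ATP6V1B2, ATP6V1C1, ATP6V1E1, ATP6V1G1, ATP6V0D1 and ATP6V0E1 each held over 93% of their family in both groups on average, with shares that overlapped between groups.

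Of 7 lysosomal membrane protein genes, all tested, 2 rose and 0 fell, beside 5.19% and 5.56% of all genes tested. The median log2 fold change of the 7 was 0.46. OSTM1, the membrane partner of the chloride-proton exchanger CLCN7 whose loss causes osteopetrosis, was at 230, 186 and 212 CPM with the OSGEP hairpin and at 98.8, 105.0 and 138.6 CPM with the control hairpin. The groups stood apart, and the log2 fold change was 0.87 (SE 0.15, edgeR adjusted p = 0.000781). CLCN7 was at 23.2, 74.5 and 64.2 CPM against 58.7, 42.7 and 46.0 CPM. Knockdown library 1 was the lowest of the 6 and the other knockdown libraries were the highest, and the log2 fold change of CLCN7 was 0.13 (SE 0.30). The difference from OSTM1 was not tested.

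CD63, a tetraspanin of late endosomes and granules, was at 679, 521 and 576 CPM with the OSGEP hairpin and at 427, 437 and 427 CPM with the control hairpin. The knockdown libraries were all higher but spread widely, with a log2 fold change of 0.46 (SE 0.11, edgeR adjusted p = 0.0105). Its call was lost without control library 1 (0.45), 2 (0.47) or 3 (0.45). The abundant glycoproteins LAMP1 and LAMP2, which line the lysosome, were not called. LAMP1 was at 247, 224 and 221 CPM against 183, 204 and 175 CPM, without overlap (log2 fold change 0.30, edgeR adjusted p = 0.122), and LAMP2 at 463, 362 and 437 CPM against 389, 427 and 425 CPM (0.02, edgeR adjusted p = 0.937). The calcium channel gene MCOLN1 had a log2 fold change of 0.83 (SE 0.37) at 6.24 to 24.9 CPM and the arginine sensor SLC38A9 0.52 (SE 0.27) at 12.9 to 23.3 CPM, and neither passed edgeR's test (adjusted p = 0.192 and 0.279).

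Ragulator is a scaffold of 5 small proteins anchored to the lysosome by LAMTOR1. Of the 5 genes, LAMTOR5 rose and the other 4 were not called. LAMTOR5 was at 76.8, 82.3 and 64.2 CPM with the OSGEP hairpin and at 33.0, 41.7 and 38.6 CPM with the control hairpin. This is a rise from 37.8 ± 4.44 to 74.4 ± 9.29 CPM (SD, n = 3 each), with a log2 fold change of 0.98 (SE 0.18) and an edgeR adjusted p of 0.00146. The anchor LAMTOR1 stood at -0.12 and LAMTOR2, LAMTOR3 and LAMTOR4 at 0.03, 0.66 and 0.20, with groups that overlapped for each. The difference between LAMTOR5 and these was not tested. Of the exonic bases of LAMTOR5, 17.5% lie within exons on the opposite strand, and the strand setting of the counting is not given.

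None of the 4 Rag GTPases was called, and DESeq2 and limma-voom called 0, although RRAGA had an unadjusted edgeR p under 0.05. RRAGD was the most abundant by far, at 369, 287 and 302 CPM with the OSGEP hairpin and 335, 297 and 295 CPM with the control hairpin, and made up 94.4% and 96.0% of RRAGC and RRAGD per length. Its log2 fold change was 0.05 (SE 0.12). RRAGA was at 21.9, 26.7 and 21.3 CPM against 18.9, 12.9 and 12.9 CPM, without overlap (0.65, SE 0.28, edgeR adjusted p = 0.168). RRAGC was close to 19 CPM in every knockdown library and at 7.73, 21.5 and 9.35 CPM in the control, so its value of 0.56 became 1.15 without control library 2 and was not called there either. RRAGB lay between 3.50 and 8.97 CPM.

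FNIP2 changed most among the members called. It was at 130, 84.4 and 92.7 CPM with the OSGEP hairpin and at 42.0, 44.0 and 34.7 CPM with the control hairpin. Every knockdown library was far above the highest control library. The mean was 102.3 ± 24.2 against 40.2 ± 4.89 CPM (SD, n = 3 each), with a log2 fold change of 1.35 (SE 0.19), 2.54-fold, and an edgeR adjusted p of 0.000138. Its paralog FNIP1 was at 6.16, 9.71 and 12.2 CPM against 11.5, 12.2 and 8.12 CPM, with overlapping groups (-0.18, SE 0.39). FLCN, their shared partner and the catalytic part of the complex, was at 13.1, 16.5 and 10.3 CPM against 11.6, 11.4 and 11.8 CPM (0.20, SE 0.33). FNIP2 made up 93.9%, 86.4% and 84.7% of the FNIP transcripts per length in the knockdown and 72.7%, 72.5% and 75.7% in the control. The shares did not overlap (exact permutation p = 0.1), and the difference of 14.7 points was 4.98 points with the median length of protein-coding transcripts in place of all exons.

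**Figure D4:**
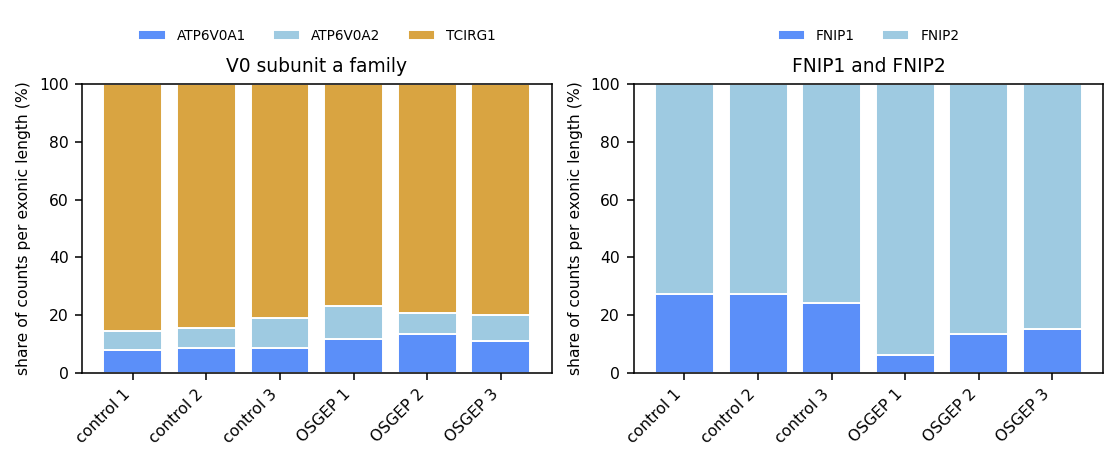
Share of counts per exonic length held by each paralog in each library, for the V0 a subunits and for FNIP1 and FNIP2. FNIP2 holds 72.5% to 75.7% in the control libraries and 84.7% to 93.9% in the knockdown libraries.

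The mTORC1 core was not called. MTOR, the kinase, was at 42.2, 62.4 and 53.7 CPM with the OSGEP hairpin and at 34.4, 41.9 and 35.3 CPM with the control hairpin. Its groups were separate by a narrow margin, and the log2 fold change of 0.50 (SE 0.20) had an edgeR adjusted p of 0.127, which became a call at 0.64 without knockdown library 1. RPTOR, the subunit that binds substrates, was at 7.20 to 14.5 CPM (0.42, SE 0.38), and RHEB, the activating GTPase, at 13.3 to 32.9 CPM (0.27, SE 0.32), both with overlapping groups.

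Around these members, 97 genes of 6 related lists were measured and 91 tested. Of the 91, 14 rose (15.4%) and 1 fell, with a median log2 fold change of 0.19. Over all genes tested, 5.19% rose and 5.56% fell, and the counts of each list below stand beside these shares. The lists were chosen with earlier results of these data known, so the shares are a description and not a test of the lists. Of 14 tested genes of pump assembly and regulation with TCIRG1, 2 rose: DMXL1 at 0.82 (SE 0.21) and DMXL2 at 1.21 (SE 0.23), both subunits of the complex that joins V1 to V0. Its partners WDR7 and ROGDI were not called, at -0.32 (SE 0.31) and -0.29 (SE 0.29) with overlapping groups, and the median of the 14 was -0.01. DMXL2 was at 93.1, 87.6 and 61.4 CPM with the OSGEP hairpin and at 28.3, 48.8 and 27.4 CPM with the control hairpin. The call of DMXL1 was lost without control library 2 (0.78), control library 3 (0.71) or knockdown library 1 (0.69).

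Of the 4 MiT/TFE factors, 2 rose and 0 fell. TFEC was at 106.9, 113.0 and 101.2 CPM with the OSGEP hairpin and at 42.1, 30.2 and 30.4 CPM with the control hairpin, a log2 fold change of 1.64 (SE 0.17, edgeR adjusted p = 9.10e-06). TFEB was at 59.0, 49.7 and 57.2 CPM against 29.3, 36.6 and 28.8 CPM (0.81, SE 0.19, edgeR adjusted p = 0.0106). The TFEB call was lost without control library 1 (0.75) or 3 (0.74).

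Of 17 tested genes that relay amino acids to the Rags, the leucine sensor SESN2 rose by 1.95 on the log2 scale (SE 0.37), from 4.20 ± 0.670 to 16.2 ± 1.92 CPM (SD, n = 3 each). SESN1 rose by 0.70 (SE 0.20), a call kept only without knockdown library 1 or 2 and at 0.59 to 0.71 in the other 4 fits. The SESN1 call was also lost with the replicate block (edgeR adjusted p = 0.083). No subunit of GATOR1, GATOR2 or KICSTOR was called. Of 15 partners and outputs of mTOR, 1 was called, a share of 6.67% near the 5.19% of all genes that rose. It was the autophagy kinase ULK1 at 1.14 (SE 0.32), kept only without knockdown library 2 and at 1.06 to 1.20 in the other 5. With the replicate block ULK1 was not called either (edgeR adjusted p = 0.075). The targets EIF4EBP2 and RPS6KB1 stood at 0.05 and -0.03. Of 11 genes of the growth factor arm, AKT2 fell by 0.50 (SE 0.15, edgeR adjusted p = 0.048), and its call was lost with RLE size factors (-0.48), with library size alone (-0.43), with the replicate block (-0.51), with a filter of 1 read (-0.50), without knockdown library 3 (-0.38) or without control library 1 (-0.43), 2 (-0.53) or 3 (-0.55). AKT1, which was not called, stood at 0.26.

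Of 30 other lysosomal membrane genes tested, 7 rose and 0 fell. SCARB2, the receptor that carries glucocerebrosidase to lysosomes, was at 240, 214 and 206 CPM with the OSGEP hairpin and at 106, 99.4 and 99.1 CPM with the control hairpin. Its log2 fold change was 1.12 (SE 0.12, edgeR adjusted p = 1.36e-05), with groups far apart. LAPTM5, a lysosomal protein of blood cells, rose by 0.94 (SE 0.12), the sialic acid exporter SLC17A5 by 1.01 (SE 0.16) and the nucleoside transporter SLC29A3 by 1.92 (SE 0.31). GPR137B, a lysosomal regulator of the Rags, had 1.47 (SE 0.35), lost without control library 3 (1.35) or knockdown library 3 (1.23). SLC15A3, a peptide transporter, had 1.37 (SE 0.39), lost without control library 1 (1.52) or 2 (0.99) or knockdown library 1 (1.13) or 3 (1.52).

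CLEAR elements are built on the E-box that the MiT/TFE factors bind, so promoters of the members were searched for it. RefSeq windows on GRCh38.p14, from 250 bases before to 50 bases after the start, were found for 37 of the 49 members, with the first window listed taken for each gene. In 31 of the 37, bases just after the start were found in a GENCODE transcript of the gene on the same strand. Distances depend on the RefSeq start used. The GENCODE gene of ATP6V0B, for one, begins at 43974487, before its window. The motif GTCACGTG, searched on both strands, was in 10 of 37 windows, 27% of them, and in 3.43% of 15843 protein-coding windows. The palindrome TCACGTGA was in 5 windows (13.5%, against 1.43%), and the E-box CACGTG, which both longer motifs contain, in 13 (35.1%, against 8.88%). Of the 7 members that rose and have a window, 1 held GTCACGTG, ATP6V0B. Of the 25 not called, 9 held it: ATP6V0D1, ATP6V1G1, CLCN7, FNIP1, LAMP1, LAMTOR4, MCOLN1, RRAGB and RRAGC. The E-box was in 2 of the 7 that rose, ATP6V0B and CD63, and in 11 of the 25 not called. ATP6V1A, ATP6V1B2, ATP6V1C1 and ATP6V1H, which also rose, had no window and were not searched. The matches are descriptions of letters in a window, not of binding.

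The 250 bases before the start follow for 4 members with the motif, of which ATP6V0B rose, and for 2 members without it, which rose. Capitals mark GTCACGTG on either strand, TCACGTGA and CACGTG. The windows are chr1:43974710-43974959, chr9:114587519-114587768, chr19:7522374-7522623, chr13:113296989-113297238, chrX:154428427-154428676 and chr4:158768776-158769025, all on the plus strand and written 5′ to 3′.
ATP6V0B: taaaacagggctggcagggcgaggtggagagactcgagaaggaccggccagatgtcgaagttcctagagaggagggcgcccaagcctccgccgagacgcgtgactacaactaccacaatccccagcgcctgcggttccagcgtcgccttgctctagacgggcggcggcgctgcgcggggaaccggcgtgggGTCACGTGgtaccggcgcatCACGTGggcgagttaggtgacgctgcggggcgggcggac
ATP6V1G1: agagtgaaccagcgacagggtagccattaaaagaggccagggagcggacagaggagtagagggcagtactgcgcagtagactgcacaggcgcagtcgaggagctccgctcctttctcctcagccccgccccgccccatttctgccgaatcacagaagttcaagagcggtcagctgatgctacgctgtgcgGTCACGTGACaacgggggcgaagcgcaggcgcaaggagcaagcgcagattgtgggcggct
MCOLN1: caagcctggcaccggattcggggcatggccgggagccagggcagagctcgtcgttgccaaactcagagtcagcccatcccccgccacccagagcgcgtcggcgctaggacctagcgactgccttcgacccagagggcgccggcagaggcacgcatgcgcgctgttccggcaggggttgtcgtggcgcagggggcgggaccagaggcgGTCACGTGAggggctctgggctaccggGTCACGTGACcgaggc
LAMP1: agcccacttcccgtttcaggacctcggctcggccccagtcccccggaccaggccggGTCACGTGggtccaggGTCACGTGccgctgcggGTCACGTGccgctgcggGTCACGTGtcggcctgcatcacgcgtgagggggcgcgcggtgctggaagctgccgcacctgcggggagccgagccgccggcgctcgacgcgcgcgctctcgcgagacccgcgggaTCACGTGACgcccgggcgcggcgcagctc
ATP6AP1: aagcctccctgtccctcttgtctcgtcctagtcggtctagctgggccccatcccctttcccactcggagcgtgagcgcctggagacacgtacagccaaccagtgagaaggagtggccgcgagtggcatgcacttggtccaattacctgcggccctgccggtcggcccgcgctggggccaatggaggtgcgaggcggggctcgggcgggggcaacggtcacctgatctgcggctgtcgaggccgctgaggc
FNIP2: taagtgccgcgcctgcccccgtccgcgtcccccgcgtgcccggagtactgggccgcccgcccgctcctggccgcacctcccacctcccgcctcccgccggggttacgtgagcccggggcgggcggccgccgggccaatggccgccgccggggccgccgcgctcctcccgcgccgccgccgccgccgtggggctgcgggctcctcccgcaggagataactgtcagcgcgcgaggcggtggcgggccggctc
In ATP6V0B and ATP6V1G1 the E-box within the longer motif began 57 and 58 bases before the start, and ATP6V0D1, not shown, had its own at 59 bases. MCOLN1 held 2, at 41 and 14 bases. LAMP1 held 6, at 192, 176, 159, 142, 28 and 1 bases before the start, the last of which runs past the stretch shown. ATP6AP1 and FNIP2, with log2 fold changes of 0.85 and 1.35, held none of the 3 motifs in the whole window. LAMP1 and MCOLN1, with log2 fold changes of 0.30 and 0.83, were not called. Whether the motif goes with the change in level was not tested.

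**Figure D5:**
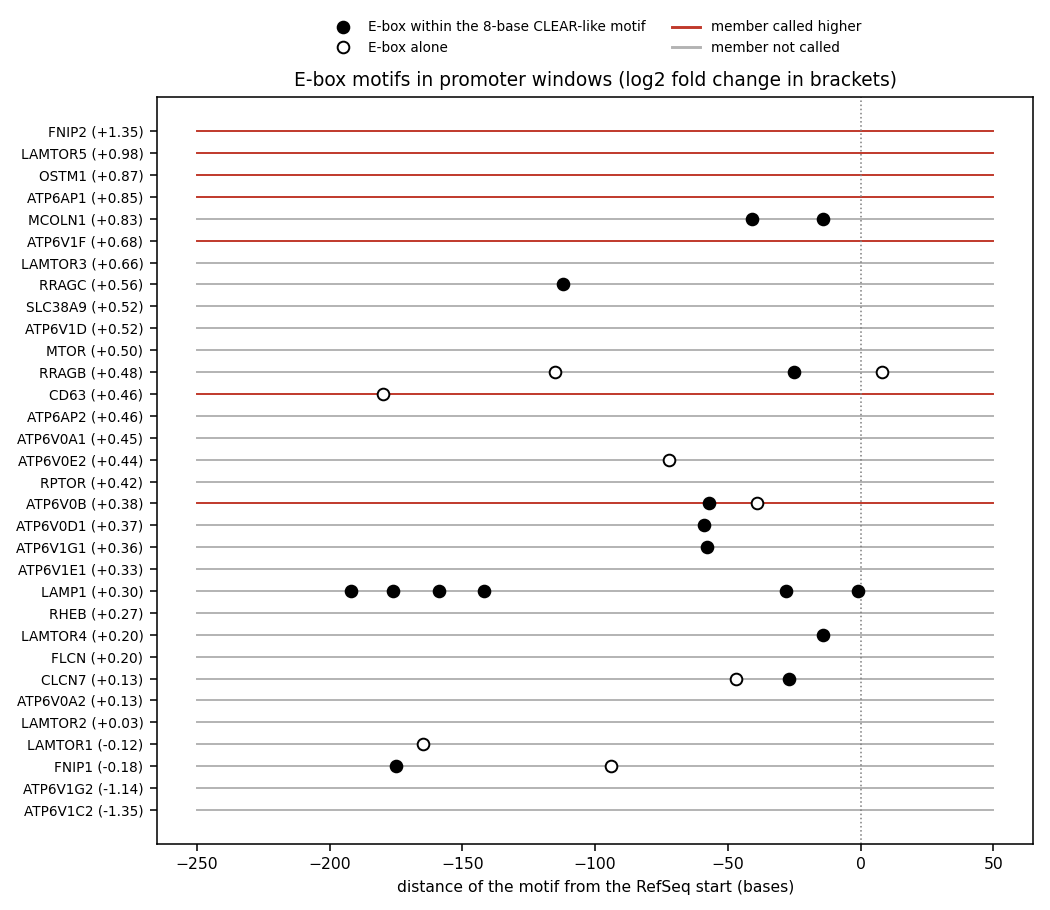
E-boxes in the promoter windows of the 32 tested members with a window, by distance from the RefSeq start, ordered by log2 fold change (in brackets). Filled points lie within the 8-base motif, and red lines are members called higher, of which ATP6V0B has a filled point and the top 4 have no point.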

How the data were processed

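The deposited values are whole numbers, the read count of each Ensembl gene, in 6 tables that sum to 8326982 to 10157091. Per the labels' protocols, libraries came from a stranded mRNA kit and were read as 150 bp pairs. The submitters' processing notes name HISAT2 2.1.0 and featureCounts 1.6.3 and the builds GRCh38 and GRCm38, with no roles. Not given in the sources used here are the annotation, the strand setting and how multiply aligned reads were counted, so overlapping genes and pseudogenes may share reads with members. Symbols, types and exon lengths came from GENCODE release 29 and a table of current names.

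Groups came from the sample titles. Knockdown was compared with control by edgeR 4.0.16 in R 4.3.3, with TMM, filterByExpr (minimum count 10, total 15) and group as the only term, on all 14018 genes that passed. Tests were two-sided with Benjamini-Hochberg adjustment over all of them at 0.05. Standard errors came from dividing fold changes by the root of F. The fit was run on counts simulated with the dispersions of these data, which cannot show whether the libraries were independent. Members and lists were chosen with earlier results of these data known, and named genes are all members, OSGEP, TCIRG1 and, of each list, up to 6 called genes at a mean CPM of at least 5 or the most abundant uncalled ones. Alternatives were RLE, library size alone, 2 other filters, the replicate block, each library left out, DESeq2 1.42.0, limma-voom (limma 3.58.1), and for shares other lengths, of which transcript length was chosen after the data were seen. The proteome data were not analysed here. A gene that the naming rule picked is not reported here.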

Additional observations from a re-analysis of the deposited data

How the results depend on the processing

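The 11 members called higher were also called with RLE size factors, library size alone, either filter, DESeq2 and limma-voom, and 10 of them with the replicate number as a block, where ATP6V0B was lost (log2 fold change 0.38, adjusted p = 0.0999). The count over all members was 15 with library size alone, 13 with DESeq2, 10 with the replicate block and 7 to 13 without 1 library. No member was called lower in any of these fits (0 to 0 without 1 library). Their median of 0.44 ran from 0.38 to 0.51. Library size alone moved the median of all genes from 0.01 to 0.08 and the V0 sum from a log2 ratio of 0.22 to 0.29.

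Of the related lists, 14 genes were higher, or 9 to 16 without 1 library and 12 with the replicate block. The 1 lower gene became 0 with RLE size factors, 0 with library size alone, 0 with the replicate block, 2 with DESeq2 and 0 to 1 without 1 library. Same-numbered libraries did not deviate together (correlations of -0.12, -0.06 and -0.04), so the numbers are not shown to pair the samples. Over all genes the replicate block called 1072 in place of 1507.

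Of 789 values of 61 single genes, 17 changed sign, and 0 of these were of a called gene. CLCN7 was at -0.015 with limma-voom, and RPS6KB1 was at 0.036 with library size alone. Without 1 library, ATP6V0E2 ran from -0.32 to 1.20, ATP6V1E2 from -1.15 to 0.0044, CLCN7 from -0.17 to 0.49, FNIP1 from -0.41 to 0.041, LAMP2 from -0.054 to 0.13, LAMTOR2 from -0.088 to 0.15, LAMTOR4 from -0.070 to 0.34, RHEB from -0.11 to 0.49, RRAGD from -0.074 to 0.13, EIF4EBP2 from -0.010 to 0.094 and RPS6KB1 from -0.14 to 0.034.

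Shares without division by length differed by -7.33 points for TCIRG1, 5.72 for ATP6V0A1 and -3.22 for ATP6V0E1, in place of -4.85, 3.67 and -0.91, and with transcript lengths by 4.98 for FNIP2 in place of 14.7. The cause was the length used. Of the 15 tested members below a mean of 20 CPM, 0 were called.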

Other observations

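Some mTOR regulators outside the members had large differences that edgeR and limma-voom did not call and DESeq2 did, and were chosen after their values were seen. MEAK7, a lysosomal TLDc protein, was at 5.43, 6.01 and 4.74 CPM in the knockdown and at 0.52, 1.33 and 1.11 CPM with the control hairpin (log2 fold change 2.44, SE 0.79, edgeR adjusted p = 0.0603, DESeq2 adjusted p = 0.00778). DEPTOR, an mTOR inhibitor, was at 4.66 ± 3.05 CPM against 13.0 ± 4.98 CPM (SD, n = 3 each), with overlapping groups (-1.49, SE 0.50, edgeR adjusted p = 0.0698, DESeq2 adjusted p = 0.0423, and edgeR adjusted p = 0.0345 with a filter of 1 read). DDIT4L, which restrains mTORC1, was at 3.03, 8.04 and 6.29 CPM against 1.13, 0.20 and 1.97 CPM (2.39, SE 0.86, edgeR adjusted p = 0.0942, DESeq2 adjusted p = 0.0266).

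Processed pseudogenes of the pump also held counts. ATP6V1E1P3 had 71, 155 and 54 counts in knockdown libraries 1, 2 and 3 and 89, 47 and 30 in the control libraries, and ATP6V0E1P2 had 27, 94 and 41 against 46, 54 and 64. Knockdown library 2 was highest for each. It was the lowest knockdown library for the parent gene ATP6V1E1 and the highest for the parent gene ATP6V0E1, at 60.8 CPM beside 54.5 and 53.0 CPM. ATP6V0CP3 had 9, 10 and 5 counts against 3, 2 and 1. Its parent gene ATP6V0C cannot be compared with it. Of the exonic bases of ATP6V0C, 72.1% are shared with other genes on the same strand, so its near-0 counts say nothing of its level.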
